A study of Mus musculus with 4 samples.

Results

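The cytosolic ribosomal protein genes were described in single-nucleus RNA-seq libraries of the adult mouse brain. They were taken from the deposited gene list by symbol: Rpl or Rps followed by a number, plus Rpsa, Rplp0, Rplp1 and Rplp2, without the S6 kinases and without pseudogenes. The rule found 84 genes of 32285 in the list, of which 52 code for proteins of the large subunit and 32 for proteins of the small subunit. No measured value entered the rule.

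Ribosomal proteins assemble with ribosomal RNA in the nucleolus into the small subunit, which reads the mRNA, and the large subunit, which joins amino acids. The mature mRNAs of these genes are abundant in the cytoplasm, and many begin with a run of pyrimidines through which the TOR pathway sets their translation. In the brain they are also found in dendrites and axons. A library made from isolated nuclei counts newly made, unprocessed and nucleus-bound RNA, and whatever cytoplasmic RNA stays with the nuclei.

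The study compared methanol fixation of nuclei and the way the brain was harvested. All mice were wild type C57BL/6 of 10 weeks, and brains were frozen on dry ice after removal of the cerebellum. The 4 groups were in vivo harvest with methanol-fixed nuclei, post-mortem harvest with methanol-fixed nuclei, in vivo harvest with unfixed nuclei and post-mortem harvest with unfixed nuclei. In vivo harvest meant craniotomy under deep isoflurane anaesthesia, and post-mortem harvest meant cervical dislocation. Fixation meant methanol at a final concentration of 80% for 30 minutes at -20 °C, followed by a preservation kit that unfixed nuclei did not receive. Methanol and that kit therefore cannot be told apart. Each group was 1 library made with the SeekOne DD 3' kit, and the labels do not say whether fixed and unfixed nuclei came from the same brain. With 1 library per group no difference could be tested. Values are given with 95% counting intervals, which cover counting error only and not the spread between brains or libraries.

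After filters, 6811 nuclei remained in the in vivo methanol library, 15081 in the in vivo unfixed library, 9809 in the post-mortem methanol library and 12483 in the post-mortem unfixed library. The unique molecular identifier (UMI) counts in these nuclei summed to between 51528633 and 66475595 per library. The median nucleus held 7822 UMIs in the in vivo methanol library against 3020 in the in vivo unfixed library, and 6293 in the post-mortem methanol library against 3785 in the post-mortem unfixed library. Between 61 and 210 barcodes were shared by any pair of libraries. In the post-mortem methanol library 11 barcodes above 50000 UMIs held 4.27% of all UMIs and 5.95% of the ribosomal protein UMIs, and the shares and calls that moved without them are given both ways.

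Ribosomal protein genes took a larger share of the UMIs in both methanol libraries than in the unfixed library of the same harvest. The share was 0.205% in the in vivo methanol library against 0.125% in the in vivo unfixed library, a ratio of 1.65. It was 0.224% in the post-mortem methanol library, or 0.220% without the barcodes above 50000 UMIs, against 0.156% in the post-mortem unfixed library, a ratio of 1.44. The underlying counts were 122573 ribosomal protein UMIs against 64584 after in vivo harvest, and 148853 against 80146 after post-mortem harvest. Both subunits moved the same way: large-subunit genes were 1.74-fold and 1.52-fold higher with methanol after in vivo and post-mortem harvest, and small-subunit genes 1.51-fold and 1.32-fold higher. In the median nucleus the share was 0.213% against 0.122% after in vivo harvest and 0.226% against 0.157% after post-mortem harvest, methanol against unfixed.

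Because the libraries differed in depth, the share was also read at fixed depth. Up to 16000 UMIs, nuclei with more UMIs gave a smaller share to ribosomal protein genes in all 4 libraries. Among nuclei of 500 to 1000 UMIs the share was 0.512% in the in vivo methanol library against 0.272% in the in vivo unfixed library. Among nuclei of 8000 to 16000 UMIs it was 0.197% against 0.099%. The methanol library was higher at each of these 5 depth steps, by 1.88-fold to 2.32-fold after in vivo harvest and by 1.32-fold to 1.75-fold after post-mortem harvest. Above 16000 UMIs it was also higher, with 0.175% in 862 in vivo methanol nuclei against 0.138% in 29 in vivo unfixed nuclei, a ratio of 1.27. After post-mortem harvest the share there was 0.210% in 380 methanol nuclei against 0.0946% in 55 unfixed nuclei, a ratio of 2.22. Without the barcodes above 50000 UMIs the post-mortem methanol share at this step was 0.172% and the ratio 1.82. The share at this step was thus above that of the step before in the in vivo unfixed library, and in the post-mortem methanol library only with those barcodes. Cell types were not matched within a depth step. At 2000 to 4000 UMIs, 1369 of 4190 in vivo unfixed nuclei were medium spiny neuron-like against 122 of 623 in vivo methanol nuclei. The in vivo ratio there was 2.30 in that class, 1.71 in oligodendrocyte precursor-like, 1.48 in oligodendrocyte-like and 1.41 in astrocyte-like nuclei, against 2.22 in all. At 1000 to 2000 UMIs it was 1.57 in astrocyte-like, 1.49 in microglia-like and 1.44 in oligodendrocyte-like nuclei, against 1.88 in all. With each nucleus thinned to 1000 UMIs, the median nucleus held 2 ribosomal protein UMIs in either methanol library and 1 in either unfixed library. At that depth 12.7% of in vivo methanol nuclei had none against 30.3% of in vivo unfixed nuclei, and 11.2% of post-mortem methanol nuclei against 21.8% of post-mortem unfixed nuclei. Unthinned, the shares with none were 0.44% against 5.81% and 0.652% against 2.37%. No cell type lacks these genes, so no background level from a negative cell type could be set beside these shares.

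**Figure D1:**
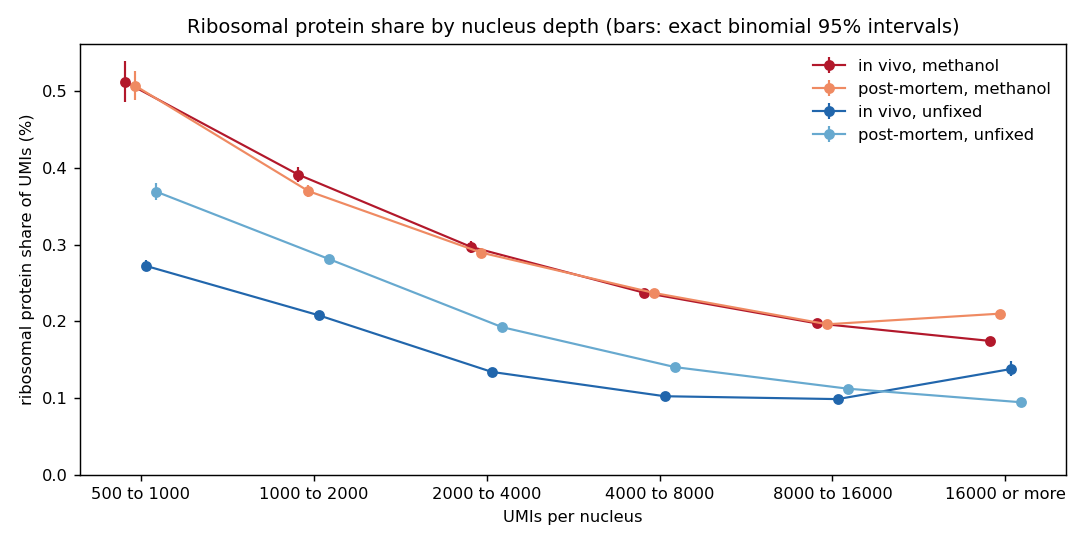
The plot gives the ribosomal protein share of UMIs (percent, vertical axis) in nuclei grouped by their UMI count (horizontal axis) for the 4 libraries. In every step both methanol libraries lie above the unfixed library of the same harvest, and all 4 lines fall up to 16000 UMIs, after which the in vivo unfixed line (29 nuclei) turns up to 0.138% and the post-mortem methanol line to 0.210%.

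To compare single genes, UMIs were summed over nuclei per library and scaled to CPM, the UMIs of a gene per 1000000 UMIs of its library, and genes with a mean of at least 10 CPM were kept. Of the 84 ribosomal protein genes 73 passed, among 9788 genes in all. In this comparison of methanol over unfixed nuclei, 68 of the 73 were higher and 4 lower in both harvests, whereas 40.9% of all 9788 genes were higher and 46.9% lower in both. Their median log2 ratio was 0.82 after in vivo harvest and 0.61 after post-mortem harvest, where the median over all genes was -0.02 and -0.02. Among the 82 members with at least 1 UMI in each library, 76 were higher and 5 lower, against 33.7% and 45.9% of the 23363 genes that met this looser condition. The in vivo ratio was the greater of the pair for 69 of the 73 genes, and for 50.7% of all 9788 genes.

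At least 2-fold higher in both harvests were 4 members, Rpl41, Rps21, Rpl36 and Rpl12, a call that 0.306% of all genes received. Rpl41, which codes for a very short basic peptide of the large subunit, had 85.2 CPM in in vivo methanol nuclei against 37.3 CPM in in vivo unfixed nuclei. After post-mortem harvest it had 87.8 CPM in methanol nuclei against 43.0 CPM in unfixed nuclei, and the log2 ratios were 1.19 and 1.03. Both methanol libraries thus lay above both unfixed libraries. Without the barcodes above 50000 UMIs Rpl41 was no longer past 2-fold in both harvests, and Rpl12, Rpl36 and Rps21 were. With classes weighted equally, with all deposited barcodes or with nuclei thinned to 1000 UMIs, only Rpl12 of the 4 met the call, which 1.01%, 0.265% and 0.98% of all genes met under those settings, so 1 member is near the share of all genes in the first and last of them. Thinned to 1000 UMIs, 9.21% of in vivo methanol nuclei had an Rpl41 UMI against 4.25% of in vivo unfixed nuclei, and 9.0% of post-mortem methanol nuclei against 4.92% of post-mortem unfixed nuclei. Unthinned, these shares were 44.1% against 11.5% and 38.7% against 15.4%.

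Rps21, a small-subunit protein, had 29.8 CPM in in vivo methanol nuclei against 11.5 CPM in in vivo unfixed nuclei, and 36.2 CPM in post-mortem methanol nuclei against 17.1 CPM in post-mortem unfixed nuclei. Its log2 ratios of 1.37 (95% interval 1.24 to 1.51) and 1.08 (0.97 to 1.19) rested on 1778, 596, 2405 and 881 UMIs in the same order. Rpl36, a large-subunit protein, had 25.9 CPM against 12.3 CPM in in vivo nuclei and 32.0 CPM against 15.7 CPM in post-mortem nuclei, methanol against unfixed. Rpl12, which lies at the base of the stalk where elongation factors bind, had 22.4 CPM against 9.03 CPM in in vivo nuclei and 26.1 CPM against 11.9 CPM in post-mortem nuclei, again methanol against unfixed. For each of these genes both methanol libraries lay above both unfixed libraries. The genes were picked for a rise in both harvests, and 40.9% of all genes were higher in both. How many of all genes had this order of the 4 libraries was not counted.

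The members with the highest mean CPM included genes that moved less than the median member. Rpl6, a large-subunit protein, had 87.0 CPM in in vivo methanol nuclei against 53.1 CPM in in vivo unfixed nuclei, and 97.5 CPM in post-mortem methanol nuclei against 66.1 CPM in post-mortem unfixed nuclei. Both methanol libraries lay above both unfixed libraries, and its log2 ratios of 0.71 and 0.56 were below the median of the members. The 8 members with the highest mean CPM, which also include Rpl41, Rpl13 and Rps13, held 20.8% and 21.3% of the ribosomal protein UMIs in the methanol libraries against 23.5% and 23.6% in the unfixed libraries.

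A few members went the other way. Rps27, a zinc-binding protein of the small subunit, had 29.9 CPM in in vivo methanol nuclei against 52.6 CPM in in vivo unfixed nuclei, and 32.3 CPM in post-mortem methanol nuclei against 65.6 CPM in post-mortem unfixed nuclei. Both methanol libraries lay below both unfixed libraries. The log2 ratios were -0.82 (95% interval -0.90 to -0.73) and -1.02 (-1.10 to -0.94), from 1783 against 2728 UMIs and 2149 against 3378 UMIs. A log2 ratio of -1 is a 2-fold decrease, and since only the post-mortem pair passed it, Rps27 did not meet the call in both harvests. At 1000 UMIs per nucleus 3.51% of in vivo methanol nuclei had an Rps27 UMI against 5.57% of in vivo unfixed nuclei, and 3.15% of post-mortem methanol nuclei against 6.92% of post-mortem unfixed nuclei. Unthinned, the shares were 21.6% against 15.9% and 17.8% against 22.4%, so the in vivo pair changed order with depth.

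Rps12, another small-subunit protein, had 23.8 CPM in in vivo methanol nuclei against 34.3 CPM in in vivo unfixed nuclei, and 27.6 CPM in post-mortem methanol nuclei against 45.5 CPM in post-mortem unfixed nuclei. Rpl7l1, a paralog of Rpl7 with a role in ribosome assembly, had log2 ratios of -0.28 and -0.37. Rpl5, which carries 5S ribosomal RNA into the large subunit and with Rpl11 restrains Mdm2, had -0.02 (-0.11 to 0.06) after in vivo harvest and -0.15 after post-mortem harvest. The in vivo interval of Rpl5 included no difference, so 3 members in all had intervals below 0 in both harvests and 68 had intervals above 0 in both. Of all genes, 2.21% were at least 2-fold lower in both harvests, and no member was.

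**Figure D2:**
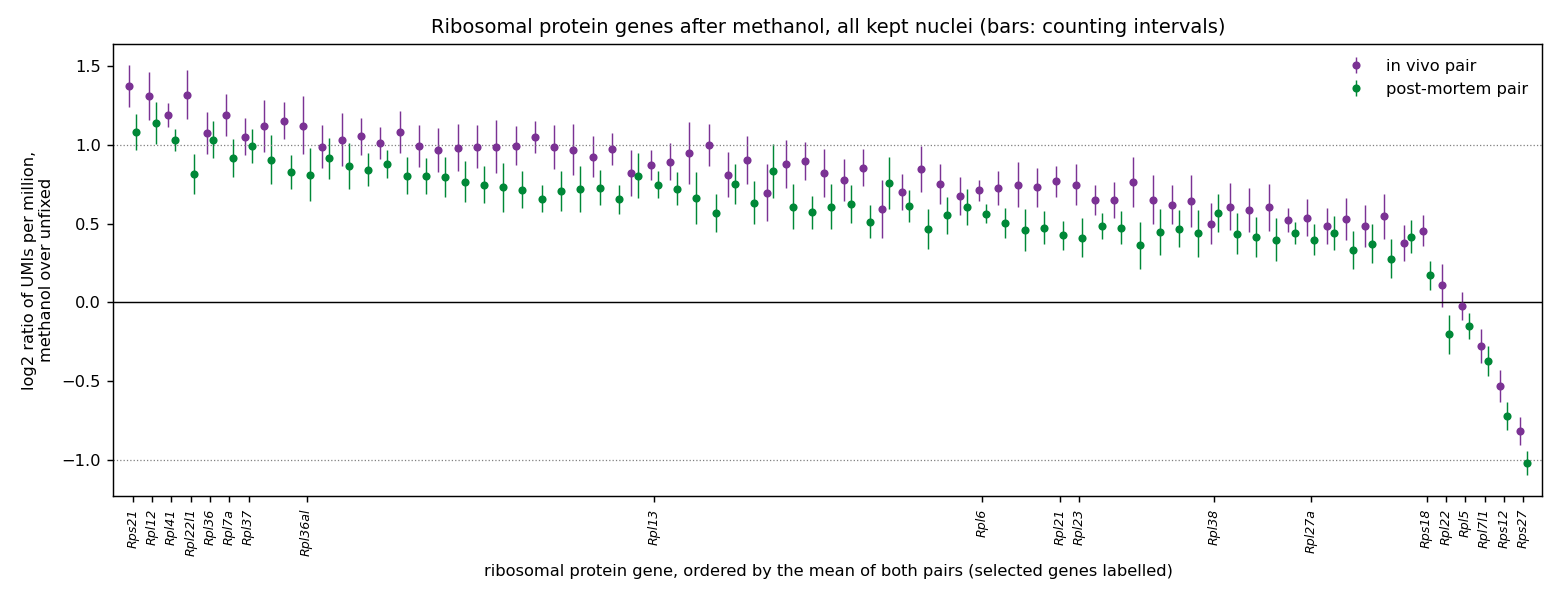
The plot gives the log2 ratio of methanol over unfixed nuclei (vertical axis) for each of the 73 measured ribosomal protein genes, ordered along the horizontal axis by the mean of both harvests, with the in vivo and post-mortem pairs as separate points and 95% counting intervals as bars. Most points lie above 0, with Rps21 first at 1.37 and 1.08 and with Rpl5, Rpl7l1, Rps12 and Rps27 below 0 in both pairs at the right end.

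The start of the transcript was read for the 64 members with a promoter in the RefSeq table (GRCm38.p6). A pyrimidine run that begins with C at the annotated start and has at least 5 letters was present in 12 of the 64, or 18.8%, and in 2.49% of all 27025 promoters in the table. It was present both in Rps21, which was higher with methanol, and in Rps27, which was lower. The windows below run from 20 bases before the start to 10 bases from it, and capitals mark the pyrimidine run. They are shown because members that moved in opposite directions share this start, and Rpl41 and Rpl12, past 2-fold, lack it at the annotated position. In Rpl12 a run of 6 letters, not in capitals, begins 2 bases after that position. Counting runs from any C within 10 bases of the start, 56.25% of the 64 members had at least 5 letters, against 30.8% of all promoters. At least 8 letters were found in 32.8% against 8.03%. The part of this start in the ratios was not tested.

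Rps21, chr2:180257359-180257388, plus strand: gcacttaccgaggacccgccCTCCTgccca

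Rps27, chr3:90213639-90213668, minus strand: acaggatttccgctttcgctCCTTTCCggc

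Rps18, chr17:33955656-33955685, minus strand: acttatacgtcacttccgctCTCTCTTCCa

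Rpl38, chr11:114668560-114668589, plus strand: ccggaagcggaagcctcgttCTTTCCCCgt

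Rps6, chr4:86857358-86857387, minus strand: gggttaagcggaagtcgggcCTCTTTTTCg

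Rpl41, chr10:128549159-128549188, minus strand: gacgacacacgggccggctcggaagtgacg

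Rpl12, chr2:32961692-32961721, plus strand: gcgtgggcggagcaggatccgtcttttcgg

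Rps6, the small-subunit protein phosphorylated by the S6 kinases, has the run but averaged under 10 CPM and was not compared. Among measured members the median log2 ratio was 0.65 and 0.55 for the 9 with a run at the annotated start, after in vivo and post-mortem harvest. It was 0.84 and 0.61 for the 45 without a run at that position. In the 300 bases around the start, on either strand, the ETS-type motif CCGGAAG was found in 39.1% of the 64 members against 9.12% of all promoters. The YY1-type motif AAGATGGCG was found in 6.25% against 1.49%, and TATAAA in 9.38% against 14.2%. Such matches are descriptions of letters, not of binding.

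The paralogs shifted against their parent genes. Rpl22 and Rpl22l1 code for alternative RNA-binding proteins at the same site of the large subunit. Rpl22l1 had 1313 UMIs in in vivo methanol nuclei against 458 in in vivo unfixed nuclei, and 1665 in post-mortem methanol nuclei against 735 in post-mortem unfixed nuclei. Rpl22 had 976 against 786 and 1128 against 1007. These counts are not scaled to the library totals. Scaled to CPM, Rpl22l1 had log2 ratios of 1.32 after in vivo and 0.81 after post-mortem harvest. Rpl22 had 0.11 (95% interval -0.03 to 0.25) and -0.20 (-0.33 to -0.08). Rpl22l1 made up 57.4% of the pair's UMIs in in vivo methanol nuclei (95% interval 55.3% to 59.4%) against 36.8% in in vivo unfixed nuclei (34.1% to 39.6%). After post-mortem harvest it made up 59.6% in methanol nuclei against 42.2% in unfixed nuclei. The same order held in excitatory neuron-like nuclei, with 58.1% against 35.6% after in vivo harvest and 56.1% against 35.6% after post-mortem harvest. It did not hold in microglia-like nuclei, with 17 to 27 UMIs of the pair per library, nor in oligodendrocyte precursor-like nuclei after in vivo harvest, with 46.2% against 50.0% from 13 and 14 UMIs.

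For Rpl7 and Rpl7l1 the order was the opposite. Rpl7l1 made up 57.7% of the pair in in vivo methanol nuclei against 76.6% in in vivo unfixed nuclei, and 61.8% in post-mortem methanol nuclei against 77.7% in post-mortem unfixed nuclei. Rps27l, a paralog of Rps27, made up 11% against 4.95% and 13.2% against 6.19% in the same order. Rpl36al and its parent Rpl36a hardly shifted, with 60.2% against 56.1% and 59.0% against 57.0%, and the intervals of each pair overlapped. Rpl3l, known from striated muscle, made up 2.13% to 5.93% of the pair with Rpl3. Rpl10l, known from the male germ line, had no UMI in any library. Fewer UMIs of a paralog and more of its parent give the same share, so a share alone does not say which gene moved.

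**Figure D3:**
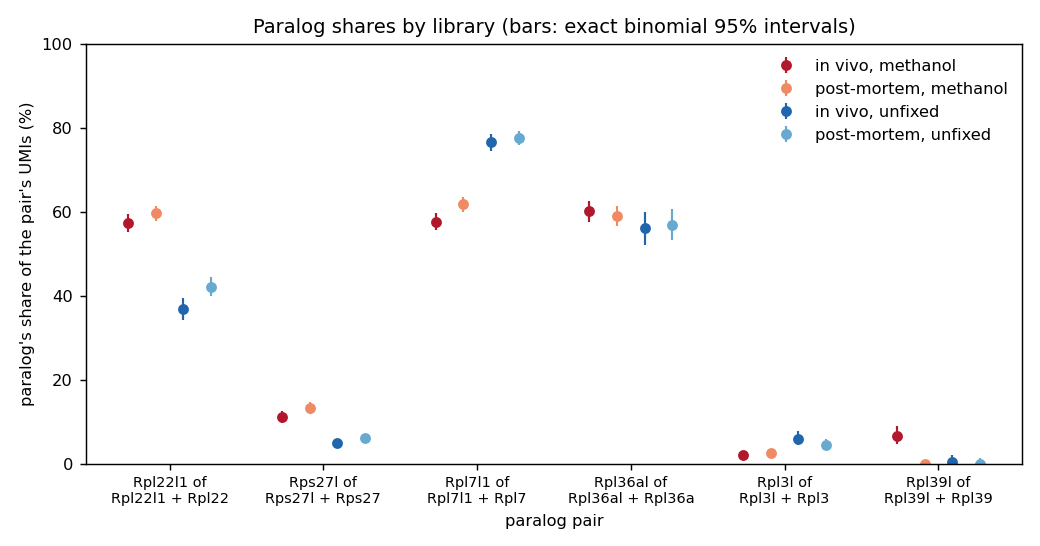
The plot gives the share of UMIs (percent) that each paralog takes of the sum with its parent gene in the 4 libraries, with exact 95% intervals as error bars. The shares of Rpl22l1 and Rps27l are higher in methanol than in unfixed libraries, that of Rpl7l1 is lower, and that of Rpl36al lies between 56.1% and 60.2% in all 4.

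Members left out of the comparison for a mean under 10 CPM were Rps25, Rpl32, Rps6, Rpl35, Rpl36a, Rpl39, Rpl15, Rps27l, Rpl3l, Rpl39l and Rpl10l. Of these, Rpl39l, a paralog of Rpl39 known from male germ cells, stood apart. It had 36 UMIs in 36 nuclei of 17 clusters in the in vivo methanol library, 1 UMI in the in vivo unfixed library and 0 in both post-mortem libraries. The ratio to the in vivo unfixed library was 31.3 with a counting interval of 5.27 to 1269. The in vivo methanol level was at least 13.4-fold higher than in post-mortem methanol nuclei, taking a floor of 3 counts for that library. A 1-library value in a gene of so few counts cannot be told apart from a feature of that library.

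A ribosomal protein can also be made as a fusion outside the symbol rule. Fau, a ubiquitin-like protein fused to a small-subunit protein, had 38.4 CPM in in vivo methanol nuclei against 21.1 CPM in in vivo unfixed nuclei, and 41.0 CPM in post-mortem methanol nuclei against 24.4 CPM in post-mortem unfixed nuclei. Its log2 ratios of 0.87 and 0.75 lay within the range of the members.

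Genes that act with the ribosome moved less than the ribosomal proteins themselves. Initiation factors had median log2 ratios of 0.16 and 0.13 after in vivo and post-mortem harvest, and 16 of the 30 measured were higher and 11 lower in both. Eif4a2, an RNA helicase that unwinds mRNA for the small subunit, was the only one past 2-fold, with 60.3 CPM in in vivo methanol nuclei against 26.7 CPM in in vivo unfixed nuclei, and 59.0 CPM against 28.5 CPM after post-mortem harvest. Of 7 measured elongation factors 4 were higher and 2 lower, and Eef1a1, which brings tRNAs to the ribosome, had log2 ratios of 0.61 and 0.34. Other mRNAs known for a pyrimidine start had medians of 0.45 and 0.20, with 13 of 17 higher and 0 lower. Factors bound to ribosomes or nascent chains had medians of 0.40 and 0.27, with 7 of 9 higher.

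Ribosome assembly genes did not move as a group. The assembly factors had medians of -0.03 and -0.08, with 8 of 23 higher and 10 lower. Among them Emg1, a methyltransferase for small-subunit ribosomal RNA, was past 2-fold upward, with log2 ratios of 1.11 and 1.01. Fbl, the methyltransferase of the small nucleolar ribonucleoproteins, was past 2-fold downward, with -1.21 and -1.54. RNA polymerase I genes had medians of -0.14 and -0.13, with 3 of 9 higher and 5 lower. TOR pathway genes had -0.18 and -0.14, with 2 of 10 higher and 7 lower, and S6 kinases 0.03 and 0.06, with 4 of 7 higher. Mitochondrial ribosomal proteins, which serve the ribosome inside mitochondria, had medians of 0.20 and 0.17, with 34 of 50 higher and 12 lower. The mitochondrially encoded mRNAs were lower in both harvests for 8 of 8 measured, with medians of -0.43 and -0.50. The members and these lists overlap in no gene, and the lists share some genes with each other.

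The ribosomal protein genes are short. In the GENCODE M21 annotation (GRCm38) their median span from start to end was 3328.5 bases, with a range of 828 to 31449, whereas the median of all 9788 compared genes was 36474.5 bases. They had a median of 5 exons against 10. Within them lay 58 small nucleolar RNA genes on the same strand, in 30 of the 84. Gene span moved with the fixation ratio outside the ribosomal protein genes as well. Among non-members, the median log2 ratios after in vivo and post-mortem harvest were 0.51 and 0.39 for 511 genes under 5000 bases, and 0.08 and 0.01 for 2421 genes of 5000 to 20000 bases. They were -0.08 and -0.07 for 4661 genes of 20000 to 100000 bases and -0.08 and -0.03 for 2122 longer genes.

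Members under 5000 bases had medians of 0.86 and 0.66 (56 genes), and longer members had 0.68 and 0.47 (17 genes). In each harvest both values exceeded the median of non-members in the matching span. Across the 73 members, Spearman's rho between span and log2 ratio was -0.26 and -0.34 and Pearson's r -0.16 and -0.19, over genes that share the same libraries. The part of gene span in the members' difference was not tested.

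**Figure D4:**
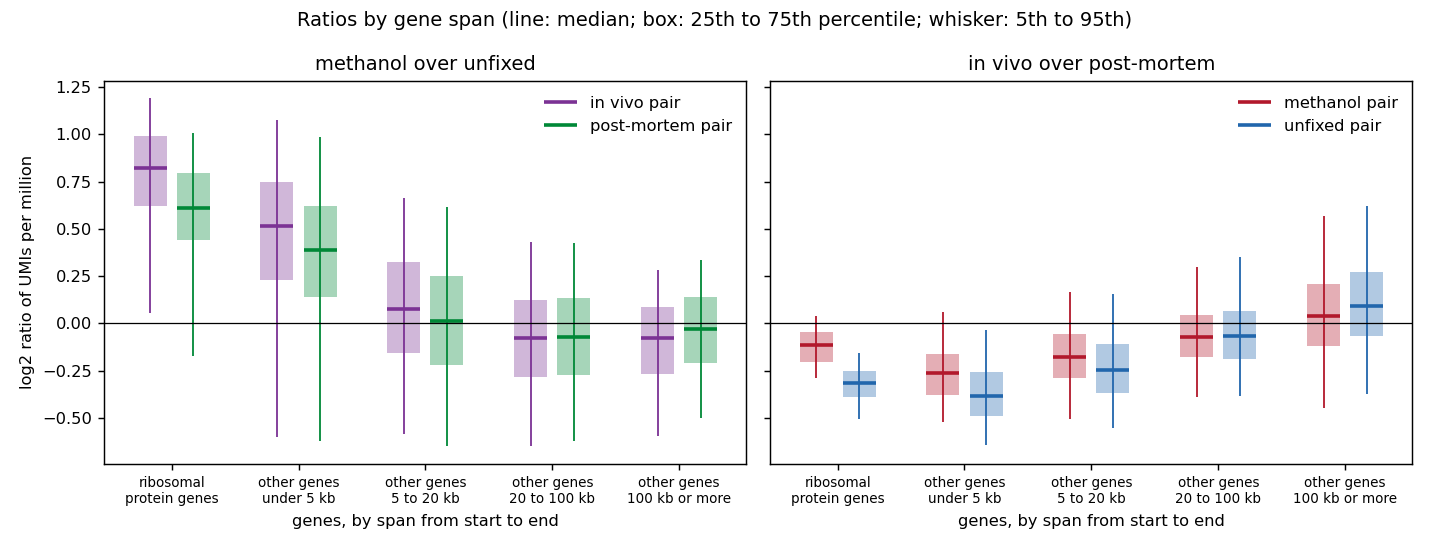
The plot gives log2 ratios of methanol over unfixed nuclei (left) and of in vivo over post-mortem nuclei (right) for the ribosomal protein genes and for other genes by span, with the median as a line, the middle 50% of genes as a box and the middle 90% as a whisker. Among other genes the left-hand median falls with span, from 0.51 to -0.08 after in vivo harvest, where the ribosomal protein genes lie at 0.82, and the right-hand median rises with span, from -0.38 to 0.09 in unfixed nuclei.

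Near-identical copies can split or add reads. The last 300 bases of the transcript matched another annotated gene at 97% identity or more over at least 90 bases for 60 of the 84 members, and Rpl21 had 37 such copies. The median log2 ratios were 0.82 and 0.61 for measured members with a copy and 0.82 and 0.58 for those without. For the 17 measured members that overlap a gene on the opposite strand they were 0.92 and 0.65, against 0.79 and 0.61 for the rest. The strand setting of the counting is not given in the sources used here, so reads of opposite-strand partners cannot be told apart. Members with a small nucleolar RNA gene inside had 0.79 and 0.59, against 0.82 and 0.61 without.

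Harvest was compared as in vivo over post-mortem within each fixation state. These comparisons use the same 4 libraries as the fixation comparison. Ribosomal protein genes were lower after in vivo harvest, with a summed ratio of 0.918 in methanol nuclei and 0.801 in unfixed nuclei, but the methanol median turned to a log2 ratio of 0.011 with nuclei thinned to 1000 UMIs. Of the 73 measured members 63 were lower and 0 higher in both states, and 59.5% of all genes were lower in both and 26.7% higher. The median log2 ratio was -0.11 in methanol nuclei and -0.31 in unfixed nuclei, beside -0.09 and -0.10 over all genes. The 4 red blood cell genes, of which none was at 0 over all nuclei of a library, were together more abundant after in vivo harvest. They summed to 0.00453% of UMIs in in vivo methanol nuclei against 0.00124% in post-mortem methanol nuclei, and to 0.00705% in in vivo unfixed nuclei against 0.000912% in post-mortem unfixed nuclei. Among them Hbb-bs, a haemoglobin chain, had 19.2 CPM in in vivo methanol nuclei against 4.81 CPM in post-mortem methanol nuclei, and 31.3 CPM in in vivo unfixed nuclei against 3.96 CPM in post-mortem unfixed nuclei. The part of these genes in the members' ratios was not tested. For non-members under 5000 bases the medians were -0.26 and -0.38, lower than those of the members in both states. No member reached a 2-fold difference in both states in either direction, a call made for 0.337% of all genes upward and 0.112% downward. The harvests also differed in their mix of nuclei. A cluster led by Abi3bp held 425 methanol and 887 unfixed nuclei after in vivo harvest against 83 and 92 after post-mortem harvest. With classes weighted equally, 39 of 79 members were lower and 11 higher in both states. The part of this mix in the harvest ratios was not tested.

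The decrease in methanol nuclei was small against the choice of scaling. With median-of-ratios size factors, which moved the median of all genes by 0.10, the members' median in methanol nuclei was -0.01, and 42 of 73 members were lower in both states. At fixed depth the methanol libraries differed little between harvests, with in vivo over post-mortem ratios of the share between 1.00 and 1.06 at the 5 depth steps up to 16000 UMIs. Cell types were not matched within a step here either. The unfixed libraries differed at each of these steps, with ratios between 0.697 and 0.879. Above 16000 UMIs the order of the unfixed libraries was the opposite, with 0.138% in 29 in vivo nuclei against 0.0946% in 55 post-mortem nuclei. In methanol nuclei the share at that depth was 0.175% after in vivo harvest against 0.210% after post-mortem harvest, or 0.174% against 0.172% without barcodes above 50000 UMIs. In unfixed nuclei 73 of 73 members were lower after in vivo harvest when scaled to total UMIs, as were 65.5% of all genes.

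The members with the greatest decrease common to both states were Rpl36, Rpl27a, Rpl7l1, Rps21 and Rpl13. Rpl36 had 25.9 CPM in in vivo methanol nuclei against 32.0 CPM in post-mortem methanol nuclei, and 12.3 CPM in in vivo unfixed nuclei against 15.7 CPM in post-mortem unfixed nuclei. Rpl27a, a large-subunit protein, had 26.9 CPM against 33.1 CPM and 18.5 CPM against 25.2 CPM in the same order. Their log2 ratios were -0.31 and -0.35 for Rpl36, and -0.30 and -0.44 for Rpl27a. Rps21 had -0.28 in methanol nuclei and -0.57 in unfixed nuclei, with 29.8 CPM against 36.2 CPM and 11.5 CPM against 17.1 CPM. In each of these genes the in vivo library was below the post-mortem library of the same fixation state. That order follows from how the genes were picked.

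Cell classes were compared next. Clusters were made without the ribosomal protein genes and named by fixed marker genes, and 8 classes had at least 100 nuclei and 100000 UMIs in every library. Unnamed clusters held 1719 of 6811 in vivo methanol and 3927 of 15081 in vivo unfixed nuclei. They held 2161 of 9809 post-mortem methanol and 3274 of 12483 post-mortem unfixed nuclei. Each name stands for nuclei that resemble the type by these markers (microglia-like, oligodendrocyte-like and so on), and 1 class is called by its leading genes, Slc5a7, Chat and Lhx8. Shares are ranked among these 8 classes only. A smaller endothelial-like cluster, described at the end, had larger shares than any of the 8 in all 4 libraries. So did a small unnamed cluster led by Cd74 and Slc6a20a. Part of this rested on single nuclei. Without the nucleus holding most ribosomal protein UMIs in each library, the Cd74 cluster had 0.494% in in vivo methanol and 0.318% in in vivo unfixed nuclei. After post-mortem harvest it then had 0.529% in methanol and 0.351% in unfixed nuclei. The last value lay below that of microglia, as did the endothelial-like in vivo methanol share of 0.375% without 1 nucleus. Of the 8 classes, microglia, the resident macrophages of the brain, gave the largest share of their UMIs to ribosomal protein genes in all 4 libraries. Their share was 0.493% in in vivo methanol nuclei against 0.312% in in vivo unfixed nuclei, and 0.517% in post-mortem methanol nuclei against 0.378% in post-mortem unfixed nuclei. Oligodendrocytes, which make myelin, were second in all 4, with 0.342% against 0.270% and 0.343% against 0.288% in the same order. Medium spiny neurons, the projection neurons of the striatum, were seventh with 0.197% against 0.112% and 0.193% against 0.127%. Excitatory neurons were lowest, with 0.180% against 0.097% and 0.181% against 0.115%.

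The remaining classes lay between. Oligodendrocyte precursors had 0.296% in in vivo methanol nuclei against 0.187% in in vivo unfixed nuclei, and 0.311% against 0.231% after post-mortem harvest. Astrocytes had 0.293% against 0.212% and 0.256% against 0.209%, and inhibitory neurons 0.223% against 0.132% and 0.228% against 0.155%. The cluster led by Slc5a7, Chat and Lhx8 had 0.212% against 0.119% and 0.235% against 0.148%. Classes also differed in depth: the median microglial nucleus held 1053 UMIs and the median excitatory nucleus 12492 UMIs in the in vivo methanol library, and 741 and 4906 in the in vivo unfixed library. Fewer UMIs of other genes and more of ribosomal protein genes give the same share, and the part of depth in the order of classes was not tested.

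**Figure D5:**
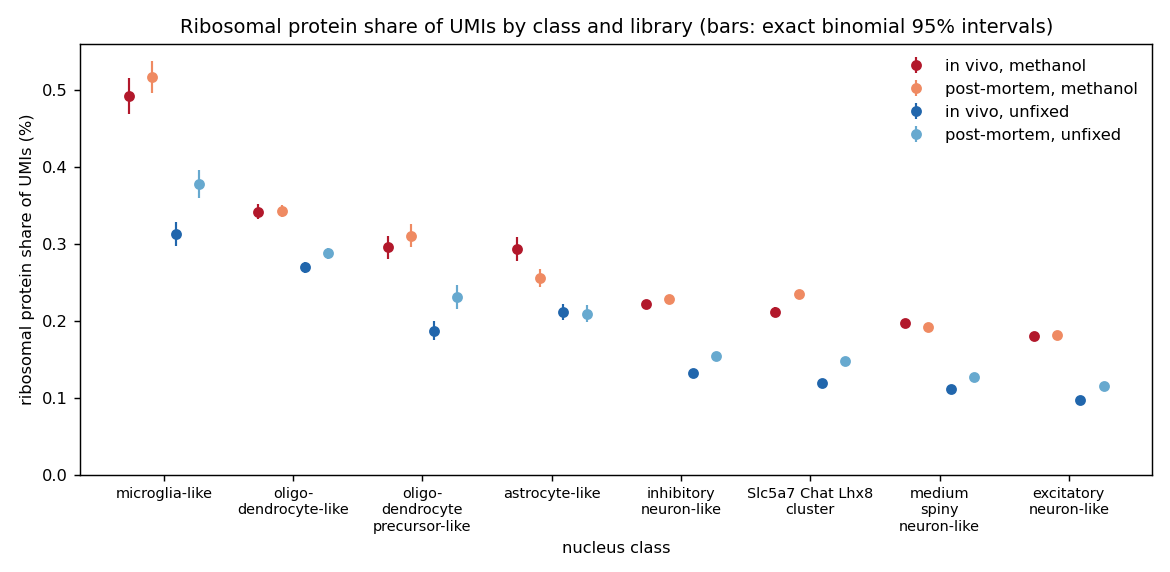
The plot gives the ribosomal protein share of UMIs (percent) per cell class and library, with exact 95% intervals. Microglia are highest and excitatory neurons lowest in every library, and in every class the methanol library lies above the unfixed library of the same harvest.

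The median fixation ratio was larger in each of the 4 neuronal classes than in each of the 4 glial classes, in both harvests, and that difference could not be tested. In excitatory neurons 65 members were measured, with median log2 ratios of 1.03 after in vivo and 0.75 after post-mortem harvest, and 14 were at least 2-fold higher in both, against 0.895% of all genes in that class. Medium spiny neurons had 0.96 and 0.73 over 69 members, with 9 past 2-fold upward where 0.843% of genes were. The cluster led by Slc5a7, Chat and Lhx8 had 0.91 and 0.77 over 74 members, with 6 past 2-fold against 0.649% of genes. Inhibitory neurons had 0.84 and 0.67 over 74 members, with 5 past 2-fold against 0.565% of genes.

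Among glia, oligodendrocytes had the smallest medians, 0.36 and 0.28 over 79 members, with 0 past 2-fold in both harvests where 0.786% of genes were. At matched depth their in vivo ratio was larger: among nuclei of 500 to 1000 UMIs the share was 0.454% in in vivo methanol against 0.267% in in vivo unfixed oligodendrocytes, 1.70-fold, beside 1.58-fold for microglia, and the counting intervals of these ratios overlapped. Among nuclei of 1000 to 2000 UMIs the in vivo ratios were 1.44 for oligodendrocytes, 1.49 for microglia and 1.57 for astrocytes, and the post-mortem ratios 1.16, 1.32 and 1.12. Astrocytes had 0.44 and 0.34 over 65 members, with 4 past 2-fold against 1.85% of genes. Microglia had 0.71 and 0.37 over 69 members, with 6 past 2-fold against 2.11% of genes, and oligodendrocyte precursors 0.75 and 0.50 over 38 members, with 2 past 2-fold against 1.09% of genes. Rpl12 was past 2-fold in 5 of the 8 classes: excitatory and medium spiny neurons, the cluster led by Slc5a7, Chat and Lhx8, astrocytes and microglia. Rps21 was past 2-fold in excitatory, medium spiny and inhibitory neurons and in astrocytes. Rpl41, Rpl36, Rpl37 and Rpl13a, all of the large subunit, were past 2-fold in both excitatory and medium spiny neurons. The paralog Rpl22l1 was past it in excitatory neurons, and Rplp2, a protein of the stalk that recruits elongation factors, in inhibitory neurons. Members that passed the filter differ between classes because the filter asks for 50 UMIs in the class.

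Beside these values, 12 neuronal marker genes were counted in glia, where none of them was at 0. They took 0.025% of the UMIs of oligodendrocytes in in vivo methanol nuclei against 0.180% in in vivo unfixed nuclei, and 0.040% in post-mortem methanol nuclei against 0.185% in post-mortem unfixed nuclei. In microglia they took 0.032% against 0.247% and 0.061% against 0.197%, and in astrocytes 0.048% against 0.133% and 0.043% against 0.095%. In oligodendrocyte precursors, where unfixed and methanol libraries were closer, they took 0.150% against 0.188% and 0.135% against 0.191%. The share was higher in the unfixed library in every such pair, and its part in the glial ratios was not tested.

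Single members differed by class. Rpl41 had 88.5 CPM in in vivo methanol excitatory neurons against 30.1 CPM in in vivo unfixed ones, and 81.2 CPM in post-mortem methanol ones against 30.0 CPM in post-mortem unfixed ones, with log2 ratios of 1.55 and 1.44. In oligodendrocytes it had 96.3 CPM against 94.4 CPM and 98.1 CPM against 93.1 CPM in the same order, with log2 ratios of 0.03 (95% interval -0.31 to 0.36) and 0.08 (-0.21 to 0.36). The excitatory intervals, 1.42 to 1.70 and 1.29 to 1.59, lay above those of oligodendrocytes in both harvests. Rps21 in excitatory neurons had log2 ratios of 1.47 and 1.46, from 522 against 154 UMIs and 612 against 163 UMIs, methanol against unfixed.

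Rps27 was past 2-fold downward in medium spiny neurons, where 2.72% of genes received that call. It had 28.9 CPM in in vivo methanol nuclei against 65.2 CPM in in vivo unfixed nuclei, and 26.2 CPM in post-mortem methanol nuclei against 78.0 CPM in post-mortem unfixed nuclei. The log2 ratios there were -1.17 and -1.57. In excitatory neurons they were -0.83 and -1.15, and in inhibitory neurons -0.64 and -0.60. In oligodendrocytes they were -0.41 and -0.96 and in oligodendrocyte precursors -0.94 and -1.10. In microglia, with 24 against 25 UMIs and 34 against 31 UMIs, the log2 ratios were 0.48 and 0.09 and both intervals included 0.

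Rpl7a, a large-subunit protein, had the largest common ratio in inhibitory neurons, with 35 CPM in in vivo methanol nuclei against 8.78 CPM in in vivo unfixed nuclei, and 32.2 CPM in post-mortem methanol nuclei against 10.3 CPM in post-mortem unfixed nuclei. These rested on 115 against 25 UMIs and 129 against 27 UMIs, and Rpl7a has 29 near-identical copies, so its value is uncertain. Rpl10a, a large-subunit protein where used tRNAs leave the ribosome, had 186 CPM against 73.8 CPM in in vivo microglia and 219 CPM against 66.7 CPM in post-mortem microglia, with log2 ratios of 1.32 and 1.70. Rpl18 in oligodendrocytes had log2 ratios of 0.92 and 1.08, from 115 against 84 UMIs and 209 against 90 UMIs.

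The make-up of the ribosomal protein RNA was then compared between each class and all nuclei. All nuclei include the class itself, which narrows a departure, most of all in large classes. Excitatory neurons held 39274 of the 122573 ribosomal protein UMIs of the in vivo methanol library. A member was called different where its share of the class's ribosomal protein UMIs departed at least 1.5-fold in the same direction in all 4 libraries, among members with at least 20 UMIs in each. None of 81 such members in excitatory neurons, 80 in medium spiny neurons, 76 in oligodendrocytes and 72 in inhibitory neurons did. The exception was Rpl13 in oligodendrocyte precursors, where 5 members could be read. Rpl13, a large-subunit protein, took 8.70% of the ribosomal protein UMIs of these precursors in in vivo methanol nuclei against 2.22% in all nuclei of that library. In in vivo unfixed nuclei it took 4.29% against 2.00%, in post-mortem methanol nuclei 10.6% against 2.47% and in post-mortem unfixed nuclei 8.44% against 2.12%. The counts in the precursors were 128, 38, 167 and 73 UMIs in the same order. All members together held 886 and 865 UMIs in the precursors of the in vivo and post-mortem unfixed libraries. At its share of all nuclei Rpl13 would have fallen below the floor of 20 UMIs there. It could be read only because it was high in this class, so its place as the exception partly follows from the floor. Neither near-identical copies nor opposite-strand genes were examined in those nuclei alone.

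Harvest ratios differed by class. Median log2 ratios of in vivo over post-mortem nuclei were 0.18 in methanol and 0.06 in unfixed astrocytes, and 0.05 and -0.09 in oligodendrocytes. They were -0.03 and -0.27 in excitatory neurons, -0.06 and -0.23 in inhibitory neurons and -0.16 and -0.32 in the cluster led by Slc5a7, Chat and Lhx8. Microglia had -0.07 and -0.35, oligodendrocyte precursors -0.07 and -0.24, and medium spiny neurons 0.06 and -0.19. In all 8 classes the ratio was lower in unfixed than in methanol nuclei. With these 4 libraries that is the same contrast as a larger fixation ratio after in vivo than after post-mortem harvest, given above. The excitatory class was made of different clusters by harvest: 1 cluster held 343 methanol and 509 unfixed nuclei after post-mortem harvest against 3 and 13 after in vivo harvest.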

How the data were processed

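The deposited files hold UMI counts per gene and barcode for 4 single-nucleus libraries, and the authors' raw counts are whole numbers with no normalisation. The submitters' processing notes name mm10 as the build. Which aligner, barcode caller, gene annotation and strand setting were used is not given in the sources used here. Barcodes with at least 500 UMIs, at least 300 genes and at most 5% mitochondrial UMIs were kept, doublets were removed with Scrublet at an expected rate of 6%, which took 838, 2773, 983 and 1817 barcodes of the in vivo methanol, in vivo unfixed, post-mortem methanol and post-mortem unfixed libraries. Nuclei were clustered in scanpy 1.11.5 without the ribosomal protein genes, on 2000 variable genes, 40 components and 20 neighbours with Leiden clustering at resolution 1.0, and a cluster was named by at least 3 markers of a fixed list under a scoring rule set after the clusters were seen.

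UMIs were summed per library, or per library and class, and log2 ratios were taken with 0.5 counts added. Ratio intervals are exact conditional intervals and share intervals exact Clopper-Pearson intervals, at the 95% level. A gene was called at a 2-fold or larger difference in the same direction in both pairs, among genes of at least 10 CPM on average and, within classes, at least 50 UMIs. No p-value was computed, since each group has 1 library, and the steps were tested on simulated counts. Gene spans came from GENCODE M21 (32235 of 32285 identifiers matched) and promoters from RefSeq. No column of an unknown sample was present (0).

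Named genes were, by rule, the 8 members with the highest mean CPM, every member past 2-fold, up to 5 members per direction and comparison in all nuclei and 3 in a class by the smaller ratio of the pairs, all paralog pairs, Fau, and the leading genes of each list. The text gives a selection of these, some items are not reported here, and Rpl18 in oligodendrocytes, Rpl5 with Rpl11 and the promoter examples were chosen with values known. The members, lists and rules were chosen with earlier results of these data known. The alternatives covered scaling, filters, counts added, the nuclei kept, opposite-strand genes, the fold and, added after seeing the data, leaving out barcodes above 50000 UMIs.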

Additional observations from a re-analysis of the deposited data

Results flagged for a closer look

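The harvest ratio had opposite signs in methanol and unfixed nuclei for a few members, and the difference between the fixation states was not tested in any of them. Rpl21, a large-subunit protein with 37 near-identical copies, had a log2 ratio of in vivo over post-mortem nuclei of 0.10 (95% counting interval 0.02 to 0.18) in methanol nuclei and -0.24 (-0.35 to -0.14) in unfixed nuclei. Rpl23, another large-subunit protein, had 0.15 (0.04 to 0.25) in methanol nuclei and -0.19 (-0.33 to -0.05) in unfixed nuclei. In medium spiny neurons the summed ribosomal protein genes had 0.036 (0.009 to 0.063) in methanol nuclei and -0.19 (-0.22 to -0.15) in unfixed nuclei.

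Barcodes left out by the filters also held ribosomal protein UMIs. In the in vivo methanol library 1 such barcode gave 5.28% of its UMIs to them, against 1.04% in 8 such barcodes of the in vivo unfixed library.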

How the results depend on the processing

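For methanol over unfixed nuclei, 43 of 50 values recomputed under the alternatives kept their direction and stayed near the reported value. The number of members at least 2-fold higher in both harvests, 4 in the reported analysis, was 1 with classes weighted equally (Rpl12), 1 among the 3 members of at least 50 CPM (Rpl41), 1 with all deposited barcodes (Rpl12), 1 after thinning to 1000 UMIs (Rpl12) and 39 at a 1.5-fold limit, where 1 was lower. The share of all genes called higher was 1.01%, 0.11%, 0.265%, 0.98% and 3.51% in the same order, with 4.29% lower at 1.5-fold. With all deposited barcodes the post-mortem median was 0.44. The members' median was above 0 in both harvests in each alternative run, and by class as well.

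For in vivo over post-mortem harvest, the median in methanol nuclei was -0.014 with median-of-ratios factors, and reversed to 0.011 after thinning. In unfixed nuclei it was -0.51 with all deposited barcodes. Members lower in both states numbered 63 in the reported analysis, 42 with median-of-ratios factors, 39 of 79 with classes weighted equally, where 11 were higher in both against 0 in the reported analysis, and 38 of 77 after thinning. By class, excitatory methanol nuclei reversed to 0.025 with median-of-ratios factors and unfixed oligodendrocytes to 0.0037 among nuclei of at least 1000 UMIs. The cause was not tested.

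The ribosomal protein share moved beyond its counting interval in 16 of 20 alternatives, always with methanol above unfixed. In vivo methanol nuclei had 0.208% with all deposited barcodes, 0.208% with doublets kept, 0.204% at 1000 UMIs or more and 0.279% with classes weighted equally, and in vivo unfixed nuclei had 0.123%, 0.123%, 0.119% and 0.180%. Post-mortem methanol nuclei had 0.228% with all barcodes, 0.221% at 1000 UMIs or more, 0.283% with equal classes and 0.220% without barcodes above 50000 UMIs. Post-mortem unfixed nuclei had 0.176%, or 0.152% with doublets kept, 0.150% at 1000 UMIs or more and 0.206% with equal classes.

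No paired analysis was possible because each group has 1 library. Counts under 20 UMIs per library, as for most members in astrocytes and microglia, limit what depth can show for single genes in glia, and no value carries the spread between brains.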

Other observations

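A few nuclei and clusters gave unusually large shares to ribosomal protein genes. Nuclei of at least 2% numbered 10 in the in vivo methanol library, 3 in the in vivo unfixed library, 16 in the post-mortem methanol library and 12 in the post-mortem unfixed library, with a highest share of 6.23%. In a small endothelial-like cluster 1 nucleus of the in vivo methanol library held 1562 of its 1928 ribosomal protein UMIs there, and the cluster's share was 1.44% with it and 0.375% without it. The cluster's share was 0.729% in in vivo unfixed, 0.789% in post-mortem methanol and 0.550% in post-mortem unfixed nuclei. Without the nucleus that held most ribosomal protein UMIs in each library, these shares were 0.493%, 0.669% and 0.508%.

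Barcodes left out by the filters after post-mortem harvest had high shares as well: 6.13% in 51 methanol barcodes and 6.56% in 183 unfixed barcodes, with 13.5% and 23.5% mitochondrially encoded UMIs. An unnamed cluster led by Dynlt1a, Leng9 and mt-Co1 gave 0.230% in 51 in vivo methanol nuclei against 0.274% in 538 in vivo unfixed nuclei, and 0.306% in 76 post-mortem methanol nuclei against 0.434% in 745 post-mortem unfixed nuclei, an order opposite to that of the 8 compared classes. Its post-mortem methanol nuclei include 9 of the 11 barcodes above 50000 UMIs.

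Nuclei with neuroblast markers were too few after post-mortem harvest to be compared, with 23 methanol and 24 unfixed nuclei against 182 and 362 after in vivo harvest. Their ribosomal protein share was 0.436% in in vivo methanol nuclei against 0.260% in in vivo unfixed nuclei, and 0.440% against 0.245% after post-mortem harvest.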
